A study of Canis lupus familiaris with 8 samples.

Results

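Adrenal cortex was compared between the Chinese Field Dog and the Beagle with messenger RNA sequencing, using 4 of the 8 libraries of a study of both breeds. Labels assigned 2 of the 4 to the Chinese Field Dog and 2 to the Beagle. All came from adult dogs. In each breed 1 adrenal library was from dogs under chronic stress and 1 from a control arm, whose label reads non-disposal and which is called unexposed here. The other 4 libraries are pituitary of the same breeds and arms, and served as a second tissue. The labels give no sex, no number of dogs per library, no statement on pooling and no description of the stress. Breed, tissue and exposure together define 1 library each, so a breed difference cannot be told apart from a difference between the dogs that were sampled, and the p-values below measure only the spread between these samples.

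The adrenal cortex is the steroid factory of the adrenal gland. Adrenocorticotropic hormone (ACTH) from the pituitary binds the receptor MC2R, which needs the partner protein MRAP, and cyclic AMP then drives cholesterol into the mitochondrion through STAR. A chain of cytochrome P450 enzymes turns that cholesterol into cortisol, aldosterone and androgen precursors. Resident macrophages lie between the cords of steroid cells, and the gland's core, the medulla, holds chromaffin cells that make adrenaline under the control of sympathetic nerves.

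Read totals of the 4 adrenal libraries ranged from 15803901 to 18712035. Spleen is the tissue named in the labels' extraction protocol, so the tissue was checked against marker genes. Of the 9 adrenal cortex markers 8 were matched by symbol (NR5A1 was not), and their summed level was 22348 to 27516 FPKM in the adrenal libraries against 53.8 to 84.3 in the pituitary libraries. FPKM scales reads to the length of a gene and the size of its library. Paired values below give the unexposed library first and the stressed library second, and runs of 4 values give the Beagle pair before the Chinese Field Dog pair. The 3 measured spleen markers, TLX1 among them, summed to 0.88 to 1.33 FPKM, with TLX1 at 0 in all 4 libraries. All 4 adrenal libraries also held medulla, since 7 medulla markers summed to 5573 and 4703 FPKM in Beagle libraries and 3464 and 3186 in those of the Chinese Field Dog. In such bulk samples fewer cells of a type and less RNA per cell cannot be told apart.

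The unexposed Beagle library stood apart from the other 3 in nerve genes. Its nerve and neuropeptide genes summed to 1041 FPKM, against 198 to 240 in the other 3. List counts that move without it are given both ways, with adjusted p-values for several leading genes.

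Only a few genes passed the main test. Breed ratios were computed as log2(FPKM + 1) in the Chinese Field Dog minus the Beagle of the same exposure, and limma tested the 2 adrenal ratios with the 2 pituitary ratios adding to the estimate of spread. It called 10 of 13759 genes at an adjusted p under 0.05 (0.0727%), 8 higher (0.0581%) and 2 lower (0.0145%) in the Chinese Field Dog, of which 7 rested on at most 2 reads in any adrenal library and are given no weight. The other 3 were the macrophage genes MARCO and CD5L and the peroxisomal oxidase HAO2, all higher in the Chinese Field Dog. The count test edgeR, run on the reads behind the 4 adrenal libraries with breed and exposure as terms, called 475 of 14648 genes (3.24%): 200 higher (1.37%) and 275 lower (1.88%) in the Chinese Field Dog. DESeq2 called 200 of 14721 (1.36%), 101 higher (0.686%) and 99 lower (0.673%), 194 of them also called by edgeR. MARCO, CD5L and HAO2 passed all 3 tools as run, but their limma calls moved with the settings. With no filter on low values the adjusted p was 0.0642 for MARCO, 0.099 for CD5L and 0.0833 for HAO2. A pseudocount of 5 gave 0.129 for MARCO, and one of 0.1 gave 0.252 for CD5L and for HAO2. A limma fit with 1 adrenal pair left out holds 1 adrenal ratio, and its residual spread comes from the 2 pituitary ratios alone. Such a fit cannot show whether a call holds up in a single adrenal pair. Its log2 ratio was 2.896 to 3.166 for MARCO, 3.845 to 4.023 for CD5L and 2.511 to 2.747 for HAO2. All other genes described below as higher or lower by test passed edgeR only or edgeR and DESeq2, not limma.

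The edgeR calls depended on the terms of the fit and on which libraries entered it. Breed as the only term, chosen after seeing the data, left 7 of the 475 calls with all 4 libraries, 7 higher and 0 lower, with 1683 genes at an unadjusted p under 0.05. The 7 were MARCO, CD5L, HAO2, DLA-79, LY6K, a DLA88 entry and an entry without a symbol. With all 4 libraries, every other edgeR call given below, those of lower genes included, needed the exposure term. Fits that leave out 1 library also have breed as the only term. Each takes its spread from the breed that keeps both libraries, which differ in exposure. A call lost in such a fit therefore cannot be laid to the left-out library alone. Without the unexposed Beagle library edgeR called 145 genes, 103 higher and 42 lower. Without the stressed Beagle library it called 574, 137 higher and 437 lower. Without either Chinese Field Dog library it called 0, with 1837 genes at an unadjusted p under 0.05 when the unexposed library was left out and 951 when the stressed one was. Of the 15 well-counted genes named below as most higher in both exposures, 15 kept their edgeR call without the unexposed Beagle library, 14 without the stressed Beagle library and 0 without either Chinese Field Dog library. Of the 15 most lower genes 7, 14 and 0 did. Lists counted below likewise had 0 calls without either Chinese Field Dog library.

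A total of 96 genes differed at least 2-fold in the same direction under both exposures (0.698%), 67 higher (0.487%) and 29 lower (0.211%), where 4.35% of genes differed so in the unexposed and 3% in the stressed pair. Across the 12578 genes with at least 50 reads the ratios of the 2 exposures had a Pearson r of 0.37, a description over genes that share libraries. The scatter of the 2 ratios shows where 4 gene groups lie.

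**Figure D1:**
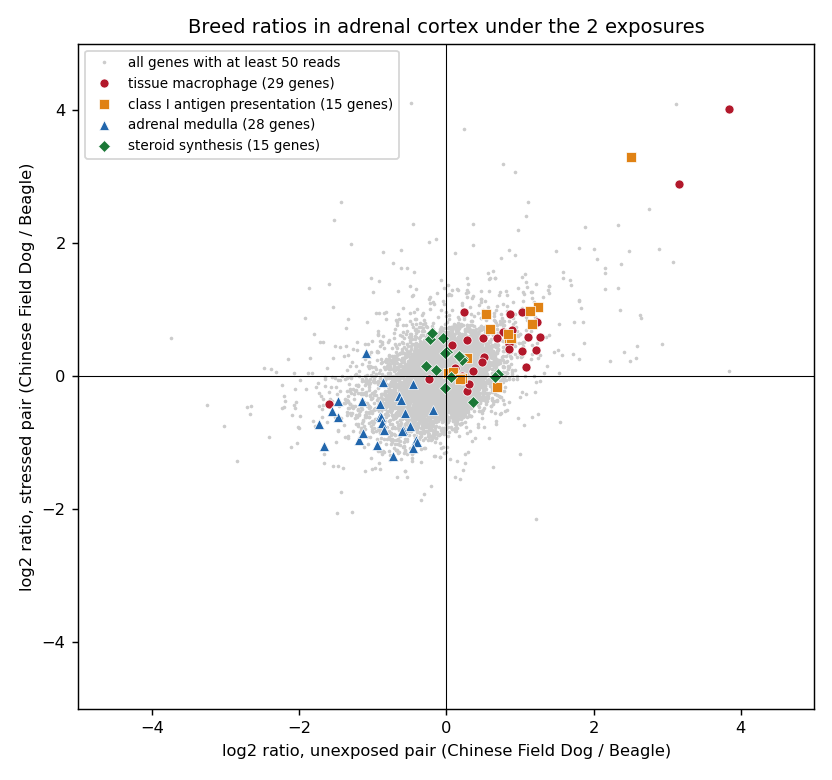
Breed ratios in adrenal cortex, log2 of Chinese Field Dog over Beagle (FPKM + 1), in the unexposed pair of libraries (x axis) and the stressed pair (y axis). Grey points are all 12578 genes with at least 50 reads, and coloured points are members of 4 lists; macrophage and class I genes lie mostly to the upper right, medulla genes to the lower left and steroid synthesis genes around 0.

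Macrophage genes had higher levels in Chinese Field Dog libraries, 2 of them by a wide margin. MARCO, a scavenger receptor of tissue macrophages, had 0.197 and 0.177 FPKM in Beagle libraries and 9.74 and 7.76 in those of the Chinese Field Dog. Both Beagle libraries held 4 MARCO reads, against 273 and 167. The mean log2 ratio was 3.03 (limma SE 0.14, adjusted p = 0.034), and on reads edgeR gave 5.67, since adding 1 to a low FPKM shrinks the ratio. The 95% counting interval of the MARCO ratio was 4.40 to 7.66 on the log2 scale in the unexposed pair and 4.21 to 7.49 in the stressed pair, and it covers counting error only. CD5L, a protein that macrophages secrete and that binds lipids and microbes, had 0.549, 0.325, 21.3 and 20.6 FPKM in the same order. Its mean log2 ratio was 3.93 (limma SE 0.20, adjusted p = 0.0373; edgeR 5.64). For both genes the lowest Chinese Field Dog value was far above the highest Beagle value, and the exposures differed little within a breed. Among all 13759 genes, FPKM values of the breeds did not overlap in 18.5% with the Chinese Field Dog higher and in 24.2% with it lower. Genes named for a ratio in 1 direction under both exposures lean toward such separation by choice, so nothing is read from it.

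SPIC, the transcription factor of iron-recycling red pulp and marrow macrophages, had 0.24 and 0.154 FPKM in the unexposed and stressed Beagle and 4.50 and 2.56 in the Chinese Field Dog (edgeR log2 4.16, adjusted p = 0.000168). CD209, a lectin of macrophages and dendritic cells, had 24.3 and 29.2 FPKM in Beagle and 65.7 and 76.5 in Chinese Field Dog libraries. SLC11A1, which pumps iron and manganese out of the phagosome, had 9.37 and 4.96 against 25.9 and 13.7. The breeds did not overlap in any of these genes. CFP, which encodes the complement factor properdin and lies on the X chromosome, had 2.74 and 1.91 FPKM against 10.2 and 7.17, again without overlap. The edgeR adjusted p values were 0.000712 for CD209, 0.00163 for SLC11A1 and 0.00154 for CFP.

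Of the 29 tested members of the macrophage list, 24 had higher Chinese Field Dog values in both exposures and 2 lower, where 25.7% of all genes tested were higher in both and 32.2% lower in both. The list's median log2 ratio was 0.69 in the unexposed pair and 0.47 in the stressed pair, against -0.03 and -0.01 over all genes. EdgeR called 11 of the 29 higher and none lower. The 3 chains of complement C1q, which were more abundant, had smaller ratios than MARCO: C1QC had 170 and 208 FPKM in the Beagle libraries and 316 and 338 in the Chinese Field Dog libraries (edgeR log2 0.82, adjusted p = 0.0281). C1QA passed as well (log2 0.75, adjusted p = 0.0292) and C1QB did not (log2 0.67, adjusted p = 0.0589). Omitting the unexposed Beagle library gave 0.423 for C1QC and 0.398 for C1QA. TIMD4, a receptor by which resident macrophages take up dying cells, had 24.8 and 29.7 FPKM against 59.9 and 53.2, and AIF1, a calcium-binding protein of macrophages, had 5.73 and 5.57 against 12.8 and 11.9. HMOX1, the haem-degrading enzyme, had 25.3 and 23.3 FPKM against 59.8 and 31.0, so that most of its breed difference lay in the unexposed pair (edgeR adjusted p = 0.0296, and 0.124 without the unexposed Beagle library). TIMD4 and AIF1 stayed called without that library (0.0275 and 0.0158). The 30 measured members together summed to 1223 and 1254 FPKM in Beagle and 1767 and 1759 in Chinese Field Dog libraries. The 6 measured macrophage markers, 5 of them higher in both exposures, summed to 208, 232, 384 and 369 FPKM, and the part of macrophage number in these values was not tested. EdgeR called 5 of the 29 higher once the unexposed Beagle library was left out, and 6 higher and 1 lower without the stressed one. SLC11A1 was not called without the stressed Beagle library (adjusted p = 0.0576).

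**Figure D2:**
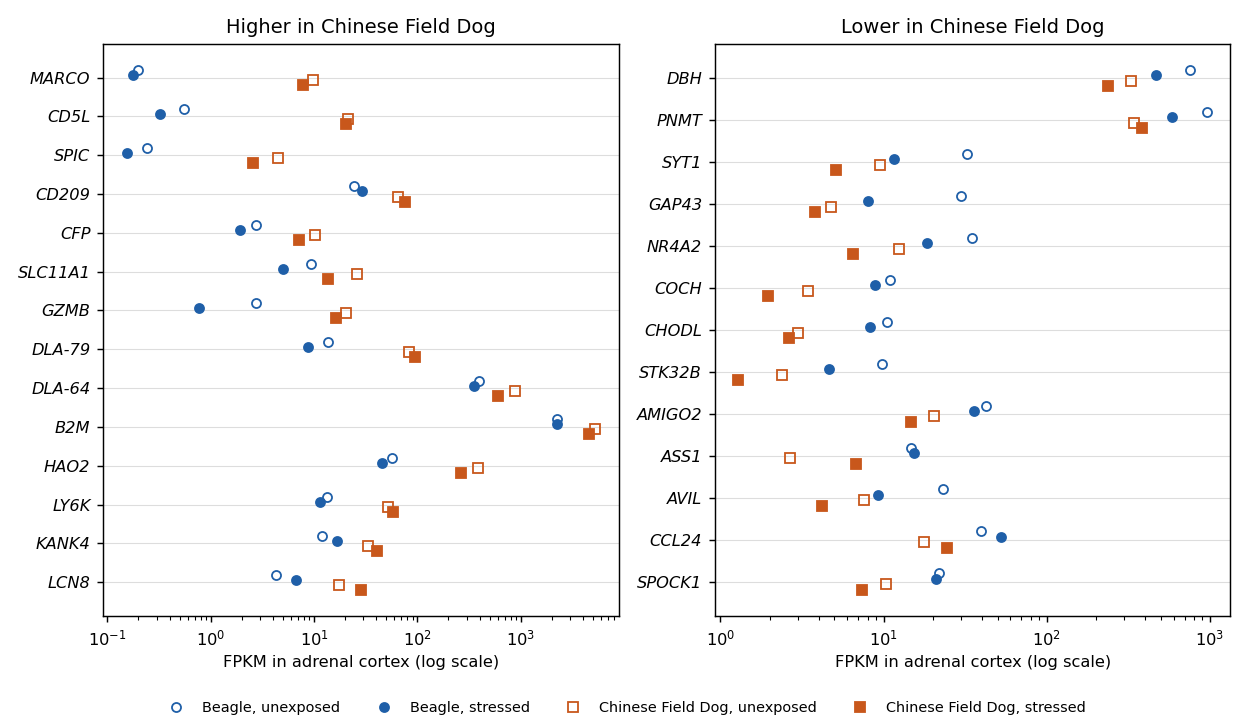
FPKM of 27 genes in the 4 adrenal libraries, on a log axis, for genes higher (left) and lower (right) in the Chinese Field Dog. Blue circles are Beagle and orange squares Chinese Field Dog, open for the unexposed and filled for the stressed library. The genes drawn were picked from those named for a ratio in 1 direction under both exposures and from named list members with such a ratio. Not all leading genes are drawn. MARCO and CD5L show the widest gaps.

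Genes that load and display peptides on class I molecules, which show samples of the cell's own proteins to cytotoxic T cells, were higher in the Chinese Field Dog as a group. B2M, the invariant light chain of class I, had 2230 and 2245 FPKM in Beagle and 5298 and 4635 in Chinese Field Dog libraries (edgeR log2 1.18, adjusted p = 0.0207). PSMB8, a catalytic subunit of the immunoproteasome that cuts peptides for class I, had 30.5 and 33.9 FPKM against 68.2 and 67.9 (adjusted p = 0.00348). Leaving out the unexposed Beagle library gave edgeR adjusted p values of 0.343 for B2M and 0.0145 for PSMB8. EdgeR called 9 of the 15 tested members higher and none lower, and 12 of 15 were higher in both exposures, with medians of 0.69 and 0.58. The other calls, named after their values were seen where the list's size and change did not select them, were DLA-79, DLA-64, TAP1, PSMB9, PSMB10, ERAP2 and the class I regulator NLRC5. Of the 15, 3 were called without the unexposed Beagle library and 4 without the stressed one.

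The dog class I heavy chains are near-identical copies and differ between individual dogs, so that reads can be shared or lost between them and between an allele and the reference. DLA-79 had 13.7 and 8.82 FPKM in Beagle and 82.4 and 95.4 in Chinese Field Dog libraries (edgeR log2 3.02, adjusted p = 1.3e-05). DLA-64 had 397 and 351 FPKM against 886 and 606 (edgeR adjusted p = 0.0203, and 0.158 without the unexposed Beagle library). DLA-12 had 558 and 520 against 678 and 629 (log2 0.31, adjusted p = 0.551). The symbol DLA88 stands on 2 gene entries and was singled out after its values were seen: the more abundant entry had 290 and 309 FPKM against 1171 and 1174. How much of each heavy-chain difference reflects transcript level and how much reflects sequence differences between dogs was not tested. B2M, TAP1 and the proteasome subunits are not heavy-chain genes, and the part of sequence differences in their values was not tested either.

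Class II genes, which display peptides from engulfed material to helper T cells, had no member past a test. EdgeR called 0 of the 11 members it tested, and limma and DESeq2 called 0. Among the 10 that also entered limma, 3 had an unadjusted p under 0.05 by edgeR. The share over all genes tested by both edgeR and limma was 14.1%. Of those 10 members 6 were higher in both exposures and 0 lower in both, where 25.7% and 32.2% of all genes tested were. The medians were 0.40 in the unexposed pair and 0.10 in the stressed pair. CD74, the chaperone of class II, had 239 and 261 FPKM in Beagle and 315 and 252 in Chinese Field Dog libraries, and DLA-DRA1 had 435 and 399 against 417 and 415. In both genes the breeds overlapped. CTSS, the protease that frees class II from CD74, had 85.5 and 78.7 FPKM against 121 and 118 (edgeR log2 0.57, adjusted p = 0.0839). Whether class I and class II members differ in their breed ratio was not tested.

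Interferon-response genes leaned the same way with smaller ratios. Of 30 tested, 25 were higher in both exposures and none lower in both, with medians of 0.51 and 0.36, and edgeR called 5 higher and none lower. CXCL10, an interferon-induced chemokine for T cells, had 18.1 and 23.8 FPKM in Beagle and 38.2 and 53.2 in Chinese Field Dog libraries (edgeR log2 1.15, adjusted p = 0.004). The antiviral genes SAMD9L and HERC6 were also called (adjusted p = 0.00865 and 0.00576), as was IRF1, named after its values were seen. The abundant members MX1, ISG15 and IFI6 were not called. MX1 had 101 and 99.4 FPKM against 115 and 82.2, so that its breeds overlapped. HERC6 was the 1 of 31 members then tested that was called when the unexposed Beagle library was left out, with CXCL10 at 0.0534 and SAMD9L at 0.221.

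Transcripts of cytotoxic lymphocytes were scarce and higher in the Chinese Field Dog. GZMB, the serine protease of cytotoxic granules (chromosome 8, 4508716 to 4511843, CanFam3.1), had 2.74 and 0.772 FPKM in Beagle libraries and 20.5 and 16.4 in those of the Chinese Field Dog. These values rest on 35, 11, 329 and 202 reads (edgeR log2 3.52, adjusted p = 0.000177; limma adjusted p = 0.151). GZMA, a second granule protease, had 1.68 and 1.06 FPKM against 3.49 and 6.11, and CD3E, a chain of the T cell receptor complex, had 1.32 and 0.318 against 2.58 and 2.94. Of the 19 members with enough reads for edgeR, 7 were higher and none lower. The others were CD3D, CD3G, PRF1 and KLRD1, named after their values were seen, each on at most 61 reads in any adrenal library. NKG7 passed limma on 1 read in each Chinese Field Dog library and 0 in each Beagle library and is not counted here. The 5 lymphocyte markers, all higher in both exposures, summed to 7.99, 3.94, 29.2 and 25.1 FPKM, and the part of lymphocyte number in these values was not tested. Leaving out the unexposed Beagle library, 6 of the 20 members then tested were called, and leaving out the stressed one, 3 of 20. CD3E was not called in the second case (adjusted p = 0.29).

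HAO2, a peroxisomal oxidase of long-chain 2-hydroxy acids, was the third well-counted gene called by limma. It had 56.8 and 46.0 FPKM in Beagle libraries and 387 and 267 in those of the Chinese Field Dog. The mean log2 ratio was 2.63 (limma SE 0.14, adjusted p = 0.0373), edgeR gave 2.68 (adjusted p = 1.3e-05), and the counting interval was 2.68 to 2.87 in the unexposed and 2.43 to 2.64 in the stressed pair. Its limma adjusted p was 0.0528 from the adrenal libraries alone, and 0.128 when these were also not paired by exposure (no replicate block). HAO2 rests on 907 to 8588 reads per adrenal library. In the pituitary it was at most 0.459 FPKM in any library. Other peroxisome genes were not called: of the 39 tested members of the peroxisome list, HAO2 was the only one that edgeR called, and the list's medians were 0.04 and 0.10.

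The other genes most higher in both exposures belong to no single list. LY6K, a lipid-anchored surface protein annotated on an unplaced scaffold, had 13.4 and 11.5 FPKM in Beagle and 52.2 and 58.5 in Chinese Field Dog libraries (edgeR log2 2.18, adjusted p = 4.17e-05; limma adjusted p = 0.135). KANK4, an ankyrin-repeat protein of the cell cortex, had 11.9 and 16.6 against 33.0 and 40.8 (chromosome 5, 47771503 to 47840562; edgeR log2 1.46, adjusted p = 0.000811). TKTL1, a transketolase-like protein on the X chromosome, had 9.76 and 3.82 against 29.1 and 16.8 (log2 1.87, adjusted p = 0.000254). LCN8, a lipocalin, S100P, a calcium-binding protein, and IFGGB1 were called on fewer reads: LCN8 had 4.32 and 6.65 FPKM against 17.5 and 28.3, on 19 to 127 reads. IFGGB1 had 5.88 and 8.19 FPKM against 19.6 and 26.3 (edgeR log2 1.73, adjusted p = 0.0008).

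Medulla genes were lower in the Chinese Field Dog by edgeR with all 4 libraries and with breed and exposure as terms. DBH, which converts dopamine to noradrenaline, had 758 and 467 FPKM in Beagle libraries and 331 and 239 in those of the Chinese Field Dog (edgeR log2 -1.06, adjusted p = 0.017). PNMT, which makes adrenaline from noradrenaline, had 962, 584, 345 and 382 FPKM in the same order (log2 -1.01, adjusted p = 0.0262). SLC18A2, a transporter that loads catecholamines into granules, had 30.3, 11.4, 8.40 and 6.51 (log2 -1.32, adjusted p = 0.0111). In each of these genes both Beagle values were above both Chinese Field Dog values, and the unexposed Beagle was the highest library. Of 28 tested members of the medulla list 27 were lower in both exposures, with medians of -0.87 and -0.65, and edgeR called 11 lower and none higher. With breed as the only term and all 4 libraries it called 0 of the 28. The genes of the abundant granule proteins CHGB and PENK were not called. CHGB had 1756 and 1539 FPKM against 1283 and 1414 (log2 -0.26, adjusted p = 0.707). PENK, the enkephalin precursor, had 2854 and 2804 against 1878 and 1586 (log2 -0.68, adjusted p = 0.122). Other granule genes, SCG2, VGF and PCSK1, were called by edgeR (adjusted p = 0.0294, 0.0245 and 0.0195) and are named after their values were seen. TH, the first enzyme of catecholamine synthesis, singled out after its values were seen, had 255 FPKM in the unexposed Beagle and 134 to 142 in the other 3 libraries (log2 -0.45, adjusted p = 0.329). Without the unexposed Beagle library edgeR called 0 of the 28. In the stressed pair alone, the medulla list summed to 8998 FPKM in Beagle and 5638 in Chinese Field Dog libraries. The part that the amount of medulla in each sampled piece has in these differences was not tested.

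Nerve genes were lower in the Chinese Field Dog by edgeR, with 1 high library, the unexposed Beagle. GAL, the neuropeptide galanin, had 106 and 14.3 FPKM in Beagle libraries and 12.2 and 8.18 in those of the Chinese Field Dog. NPY, neuropeptide Y, had 266, 35.2, 27.1 and 25.8. GAP43, a growth-cone protein, had 29.8, 8.03, 4.79 and 3.80. In all 3 the stressed Beagle lay closer to the Chinese Field Dog libraries than to the other Beagle library. EdgeR called 8 of the 15 tested lower (GAL log2 -2.06, adjusted p = 0.0154; NPY -1.92, adjusted p = 0.0457; GAP43 -1.89, adjusted p = 0.00656) and NTS higher, whereas DESeq2 called 1 of the 15. The list's median was -1.71 in the unexposed pair and -0.43 in the stressed pair, and without the unexposed Beagle library edgeR called 0. With breed as the only term it also called 0 of the 15 with all 4 libraries. The synaptic vesicle protein SYT1 was among the most lower genes of all in both exposures. It had the same order of libraries, with 32.3, 11.6, 9.50 and 5.14 FPKM. With all 4 libraries its edgeR adjusted p was 0.00104 with breed and exposure as terms and 0.37 with breed alone.

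Of the 15 most lower genes, 7 kept their edgeR call without the unexposed Beagle library. CHODL, a membrane lectin (chromosome 31, 14582734 to 14606010), had 10.5 and 8.28 FPKM in Beagle and 2.98 and 2.65 in Chinese Field Dog libraries (edgeR log2 -1.71, adjusted p = 0.000897, and 0.00358 without that library). COCH, a secreted matrix protein, had 11.0 and 8.90 against 3.44 and 1.96 (log2 -1.89, adjusted p = 0.000897 and 0.00595). ASS1, which joins citrulline and aspartate on the way to arginine, had 14.8 and 15.4 against 2.66 and 6.82 (log2 -1.76, adjusted p = 0.00598 and 0.0156). In each of them the Beagle values lay close together. AMIGO2, an adhesion protein, had 42.5 and 35.9 FPKM against 20.3 and 14.8, and SPOCK1, a matrix proteoglycan, had 21.9 and 20.9 against 10.3 and 7.35. TMEM97, a sterol-regulated membrane protein, had 24.0 and 23.4 against 8.03 and 8.57. CCL24, a chemokine for eosinophils, had 39.8 and 52.1 against 17.8 and 24.6. The edgeR adjusted p without the unexposed Beagle library was 0.0319 for AMIGO2, 0.00382 for SPOCK1, 0.0184 for TMEM97 and 0.0416 for CCL24. CCL24 was not called without the stressed Beagle library (0.187) or by DESeq2 (0.209). The other 8 of the 15 (among them NR4A2, SYT1, STK32B, AVIL, CCDC172, C16orf45 and SNORA53) were not called without it.

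Immediate-early genes, which cells switch on within minutes of a signal, had 7 of 30 members called lower by edgeR and none higher. In the unexposed pair 19 of 30 were lower, in the stressed pair 27 and in both 18 (16 once each ratio was centred on its median). Of all 13759 genes tested, 7581 were lower in the unexposed pair, 7009 in the stressed pair and 4426 (32.2%) in both. The list's medians were -0.29 and -0.42. NR4A2, an orphan nuclear receptor that takes part in the transcription of steroid enzyme genes, had 34.7 and 18.5 FPKM in Beagle libraries and 12.5 and 6.49 in those of the Chinese Field Dog (edgeR log2 -1.44, adjusted p = 0.000628). JUND, a partner of FOS in AP-1, had 101, 48.7, 35.7 and 27.3 (log2 -1.15, adjusted p = 0.00602). SIK1, a kinase induced by ACTH, had 43.9, 7.85, 9.72 and 5.58 (log2 -1.35, adjusted p = 0.0257), so that its stressed Beagle value lay within the Chinese Field Dog range. FOS, an AP-1 subunit, had 198, 295, 227 and 195 FPKM with overlapping breeds (log2 -0.18, adjusted p = 0.8). Without the unexposed Beagle library edgeR called 0 of the 31 members then tested. The time between handling and tissue collection is not given in the sources used here.

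**Figure D3:**
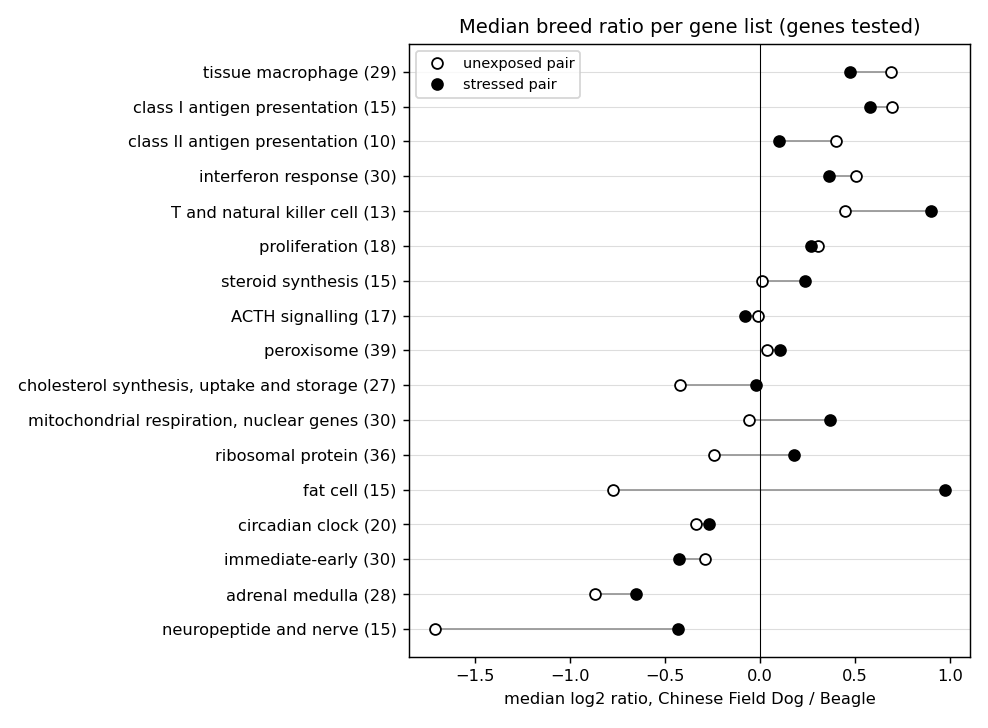
Median log2 breed ratio (Chinese Field Dog over Beagle) of 17 gene lists, with the number of genes tested, in the unexposed pair (open) and the stressed pair (filled). Macrophage, class I and interferon lists have both medians above 0, medulla and nerve lists both below 0, and the fat cell list has medians of -0.77 and 0.97.

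Steroid synthesis, the defining function of the tissue, showed no gene past any test. Of 15 tested members of the list, edgeR called 0, with 0 at an unadjusted p under 0.05, and limma and DESeq2 called 0. STAR, which carries cholesterol into the mitochondrion, had 6288 and 5079 FPKM in Beagle libraries and 5494 and 7984 in those of the Chinese Field Dog (limma log2 0.23, SE 0.33, adjusted p = 0.895). CYP11A1, which cleaves the cholesterol side chain, had 1913, 1968, 1574 and 2202. Neither gene separated the breeds. HSD3B, which makes the ketone of all active steroids, had 4291, 4655, 4967 and 5495 FPKM, with both Chinese Field Dog values above both Beagle values by a mean log2 of 0.23 (limma SE 0.13, adjusted p = 0.748). CYP17A1, needed for cortisol and androgens, had 4949, 4944, 4494 and 5308, and CYP21, the 21-hydroxylase, had 3461, 3804, 3625 and 3764. The mean log2 ratios were -0.02 (SE 0.14) for CYP17A1 and 0.03 (SE 0.13) for CYP21. The list summed to 24173 and 23853 FPKM in Beagle and 23758 and 29142 in Chinese Field Dog libraries.

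The receptors that control steroid synthesis did not separate the breeds either. MC2R, the ACTH receptor, had 88.9, 97.4, 96.4 and 98.1 FPKM in the unexposed and stressed Beagle and the unexposed and stressed Chinese Field Dog. MRAP, its partner, had 407, 133, 252 and 162, and AGTR1, the angiotensin receptor of the aldosterone zone, had 443, 322, 370 and 471. In the ACTH list edgeR called 1 of 17, MRAP2, a relative of MRAP, lower in the Chinese Field Dog (7.65, 3.36, 2.78 and 2.11 FPKM; log2 -1.07, adjusted p = 0.0396), and limma and DESeq2 called 0. CREM, a cyclic AMP-responsive factor, had 53.1 FPKM in the unexposed Beagle and 10.3 to 11.8 in the other 3 libraries (log2 -1.27, adjusted p = 0.0631). Of the 21 genes of the aldosterone zone and angiotensin list, NR4A1 and NR4A2 were called lower and the other 19 were not. Neither those 2 genes nor MRAP2 were called without the unexposed Beagle library.

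Genes that make, take up and store cholesterol had no member past a test with all 4 libraries. Of 27 tested, 12 were lower in both exposures and 3 higher, with a median of -0.42 in the unexposed pair and -0.02 in the stressed pair. SCARB1, the HDL receptor of steroid cells, had 1240, 1134, 986 and 1118 FPKM (edgeR log2 -0.15, adjusted p = 0.858). EdgeR, limma and DESeq2 called 0 of the 27, with 6 at an unadjusted p under 0.05 by edgeR, where 14.1% of all genes tested by both edgeR and limma were. Once the stressed Beagle library was left out, edgeR called 6 of the 27 lower.

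**Figure D4:**
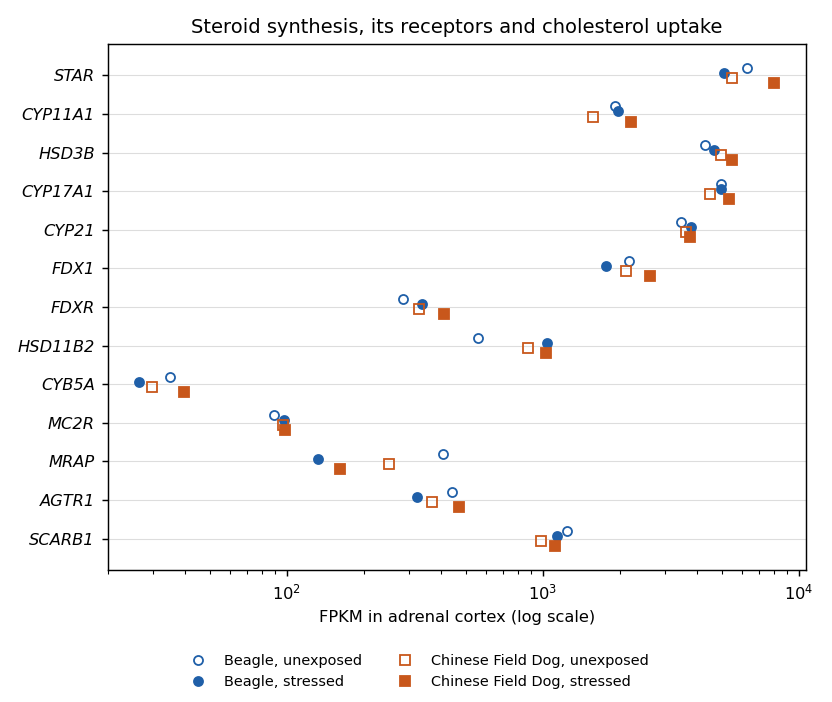
FPKM of genes of steroid synthesis, its receptors and cholesterol uptake in the 4 adrenal libraries, on a log axis, with symbols as in the plot of leading genes. The 4 values of most genes lie close together, and the unexposed Beagle stands highest for MRAP (407).

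Some breed ratios differed in sign between the exposures. In all, 8 genes with at least 50 reads were at least 2-fold different in opposite directions, 7 of them lower in the unexposed and higher in the stressed Chinese Field Dog. With 1 library per breed and exposure this dependence has no replicate and was not tested. The fat enzyme DGAT2 had 33.1 and 4.08 FPKM in Beagle libraries and 10.9 and 24.8 in those of the Chinese Field Dog. APM1, the fat-cell hormone adiponectin, had 34.3, 5.67, 13.3 and 25.4, and CIDEC, a lipid-droplet protein, had 22.9, 4.11, 6.93 and 12.4. In these 3 genes the unexposed Beagle was highest and the stressed Beagle lowest. Of the 15 tested fat-cell genes 13 were higher in 1 exposure and lower in the other, with medians of -0.77 and 0.97. EdgeR called 0 of 15 with all 4 libraries, 7 of 16 higher without the unexposed Beagle library and 2 of 16 lower without the stressed one.

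Other genes of this kind were HP, haptoglobin, with 26.3, 7.70, 9.13 and 52.5 FPKM, and FGG, a fibrinogen chain, with 38.4, 41.5, 9.78 and 106. UCN, a peptide related to corticotropin-releasing hormone, had 51.9, 4.21, 2.97 and 6.80. In the opposite direction, CORIN, a membrane protease that activates natriuretic peptides, had 3.91, 20.3, 10.4 and 3.83. NELL1, a secreted growth regulator, had 1.22, 5.20, 12.8 and 10.4 FPKM. Its breed ratio differed between the exposures in size, not in sign. It was higher in the Chinese Field Dog by edgeR (adjusted p = 0.0166), with the larger ratio in the unexposed pair.

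The pituitary libraries show which adrenal differences were seen in a second gland, and whether both glands came from the same dogs is not given in the sources used here. Of the 200 genes that edgeR called higher in adrenal cortex, 149 (74.5%) were also higher in the Chinese Field Dog in both pituitary pairs, where 24.5% of all genes tested were. Of the 275 called lower, 70 (25.5%) were lower in both pituitary pairs, where 30.7% of all genes tested were. MARCO had log2 ratios of 2.63 and 2.64 in the unexposed and stressed pituitary pairs, GZMB 3.71 and 3.92, and DLA-79 1.91 and 3.29. HAO2, LY6K and SPIC had pituitary ratios between 0.04 and 0.25 in size. HAO2 stayed under 1 FPKM in the pituitary, as given above, and the added 1 FPKM keeps such ratios small. DBH was at most 0.655 FPKM in the pituitary, and the medulla list's pituitary medians were -0.05 and 0.03. The macrophage list's pituitary medians were 0.72 and 0.58, close to its adrenal ones, and those of class I genes were 0.56 and 0.58. Limma's test of the difference between the adrenal and the pituitary breed effect called 4 of 13759 genes (0.0291%), all on at most 2 reads in any library. Fitted to the 12959 genes with at least 50 reads it called 0, with 772 at an unadjusted p under 0.05, and HAO2, LY6K and SPIC were not called.

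**Figure D5:**
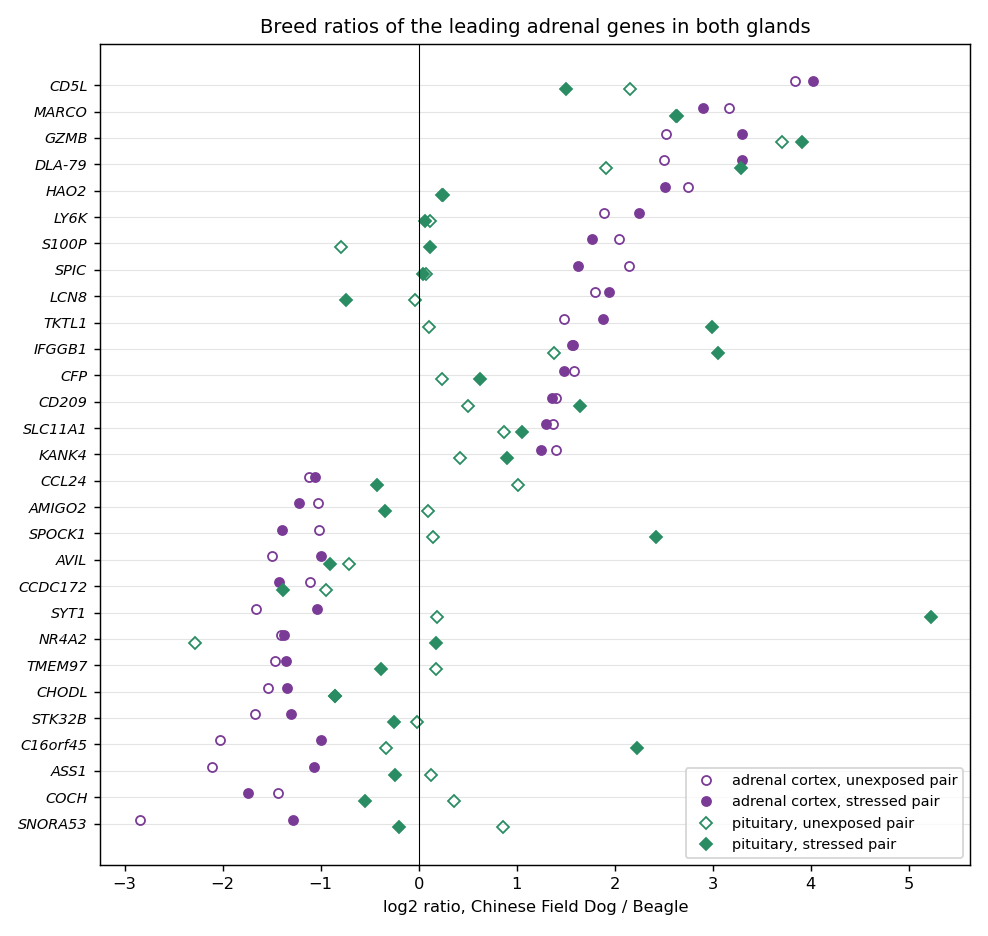
Log2 breed ratio (Chinese Field Dog over Beagle, FPKM + 1) of 29 leading adrenal genes in adrenal cortex (circles) and pituitary (diamonds), open for the unexposed and filled for the stressed pair. MARCO, GZMB, CD5L and DLA-79 lie above 1 in both glands, while HAO2, LY6K, SPIC and most lower genes have pituitary ratios near 0 or of mixed sign. HAO2 is under 1 FPKM in the pituitary, where the added 1 keeps a ratio small.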

How the data were processed

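Messenger RNA of 8 dog libraries had been sequenced, prepared with an Illumina TruSeq kit per the labels' protocols, 1 for each combination of breed, tissue and exposure. Reads were aligned with TopHat to CanFam3.1, per the submitters' processing notes; the counter and the annotation are not given in the sources used here. The deposited tables hold 24580 genes, each with a scaled count (a signal: reads divided by 1 size factor per library, as read from the values) and an FPKM value, which the authors computed per length of gene and size of library. Whole reads were recovered from the scaled counts by dividing by the smallest step of each library, and 99.1% to 99.3% of values came out whole within 0.02 reads; in the stressed Beagle adrenal and stressed Chinese Field Dog pituitary libraries the step was close to 1 and reads are near, not exact. Read totals set the counting error of low genes, and the 95% intervals cover counting error only.

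The main test was limma (3.58.1) on 4 log2(FPKM + 1) ratios of Chinese Field Dog over Beagle, 1 per tissue and exposure, with 1 coefficient per tissue, 2 residual degrees of freedom and Benjamini-Hochberg adjustment over all genes with a mean of at least 1 FPKM in the adrenal libraries. FPKM values are not counts, so edgeR (4.0.16, quasi-likelihood) and DESeq2 (1.42.0) on recovered reads, with breed and exposure as terms and 1 residual degree of freedom, were alternatives. The limma fit of the adrenal breed effect and the edgeR fit with both terms were run on simulated data without an exposure effect. DESeq2, the other fits and the counting intervals were not. The edgeR fits that leave out 1 library or the exposure term were chosen after seeing the data. Libraries were assigned to breeds by their labels, while the comparison itself and the 35 gene lists were chosen with earlier results of these data known.

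Named genes were those passing limma, the 15 per direction with the largest smaller-of-both ratio and at least 100 reads in 1 adrenal library, up to 4 most abundant and up to 4 most different members per list, measured members of the steroid, ACTH and class II lists, and the 8 per direction whose ratio differed most between exposures. Genes named outside this rule are marked as chosen after their values were seen. Results of a few genes that the rule selects are not reported here.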

Additional observations from a re-analysis of the deposited data

Results flagged for a closer look

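In 4 genes the breed effect differed between adrenal cortex and pituitary by limma's test of the difference, given here as adrenal minus pituitary on the log2 scale: SNORD14 (-11.59), a SNORD22 entry (18.52), ENSCAFG00000030251 (11.19) and ENSCAFG00000032549 (13.42). All 4 rest on at most 2 reads in any of the 8 libraries, so their FPKM values are set by single reads over very short genes.

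In 3 of the well-counted leading genes both adrenal ratios lay in one direction and both pituitary ratios in the other. The adrenal minus pituitary difference was 2.257 for LCN8, -2.489 for SPOCK1 and -4.059 for SYT1, and limma's adjusted p for each was 0.849. SYT1 and SPOCK1 were high in 1 pituitary library, the stressed Chinese Field Dog, with 207 and 43.1 FPKM against 4.24 to 4.95 and 6.12 to 7.21 in the other 3.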

How the results depend on the processing

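By limma 10 genes were called, 8 higher and 2 lower. With a pseudocount of 5 the counts were 6, 5 and 1, with no filter on low values 4, 3 and 1, and with at least 50 reads 3, 3 and 0. With no replicate block, that is with the adrenal libraries alone and not paired by exposure, 14 were called, 13 higher and 1 lower. Leaving out 1 adrenal pair gave 37 to 40 calls, 22 higher and 15 to 18 lower, and kept 4 of the 10 genes. EdgeR gave 475 (200 and 275) and DESeq2 200 (101 and 99). Leaving out 1 library at a time, chosen after seeing the data, edgeR gave 0 to 574 calls, and with no exposure term 7. The test of the difference between tissues went from 4 calls to 0 with at least 50 reads.

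Differences of at least 2-fold under both exposures numbered 96, and 193 with a pseudocount of 0.1 or 38 with 5, both chosen after seeing the data. In the stressed pair 409 became 682 with 0.1, 187 with 5 and 224 with at least 50 reads; in the unexposed pair 598 became 278 with 5. Among T and natural killer genes the number higher in both exposures went from 11 to 7 with at least 50 reads, also chosen afterwards. The leading single genes kept the sign of their fitted difference under the limma settings, edgeR and DESeq2, but the balance of directions moved: the stressed 2-fold genes were 228 higher and 181 lower, and 319 and 363 with 0.1. With 1 library per breed and exposure, and at most 4 MARCO reads per Beagle library, low genes are the least precise. The causes of these changes were not tested.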

Other observations

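Proliferation genes were scarce and mostly higher in the Chinese Field Dog: 13 of 18 tested were higher in both exposures and 3 lower, with medians of 0.30 and 0.27, and edgeR called 4 of 21 higher and none lower. TOP2A, the topoisomerase of dividing cells, had 1.19 and 0.947 FPKM in the unexposed and stressed Beagle and 3.89 and 1.71 in the Chinese Field Dog (edgeR log2 1.44, adjusted p = 0.00906). RRM2, a subunit of ribonucleotide reductase, had 0.879 and 0.681 against 3.15 and 1.70. The other calls were MKI67 and BUB1B, named after their values were seen. Without the unexposed Beagle library 1 of the 21 was called, TOP2A (adjusted p = 0.0319), and without the stressed Beagle library 0.

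Clock genes were lower in both exposures in 15 of 20, with medians of -0.34 and -0.27, and none passed: edgeR, limma and DESeq2 called 0, with 8 of the 20 at an unadjusted p under 0.05 by edgeR, where 14.1% of all genes tested by both edgeR and limma were. EdgeR called 3 of 21 lower without the stressed Beagle library. Times of tissue collection are not given in the sources used here.

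Single members of other lists passed edgeR with breed and exposure as terms. HPX, which binds free haem in plasma, had 5.55 and 2.43 FPKM against 11.8 and 14.7 (log2 1.84, adjusted p = 0.00604). ALB, albumin, had 0.79 and 27.6 against 0.121 and 9.09, so that exposure separated its libraries more than breed (log2 -1.76, adjusted p = 0.00365). CYP2S1, a cytochrome P450, had 1.87 and 2.20 against 3.54 and 7.94 (log2 1.43, adjusted p = 0.00906), and GSTT1, a glutathione transferase, had 30.9 and 36.7 against 22.0 and 14.5 (log2 -0.88, adjusted p = 0.0292). CPA3, the mast cell carboxypeptidase, had 2.02 and 0.815 against 3.47 and 4.31 (log2 1.54, adjusted p = 0.037). Omitting the unexposed Beagle library gave edgeR adjusted p values of 3.48e-05 for HPX, 0.115 for ALB, 0.0693 for CYP2S1, 0.0331 for GSTT1 and 0.00893 for CPA3. Omitting the stressed Beagle library gave 0.00605, 0.365, 0.0224, 0.107 and 0.217 in the same order, and none of the 5 was called without either Chinese Field Dog library.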
